A study of Mus musculus with 6 samples.

Results

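The Zic genes described here are *Zic1*, *Zic2*, *Zic4* and *Zic5*, which encode zinc finger transcription factors. They were taken by name from a count table of 59699 gene loci, of which 53103 name a gene, and each of the 4 names matched 1 locus. All 4 passed the filter on low counts, as did 19073 genes in all. The values are RNA-seq read counts from neural progenitor cells (NPCs) of *Armc5* knockout (KO) and wild type (WT) mouse embryos, with 3 libraries of each genotype. *Armc5* encodes an armadillo repeat protein that serves as the substrate adaptor of a cullin-based ubiquitin ligase, and the comparison asks which transcripts differ when it is missing.

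The KO cells came from Armc5-/- embryos, with both alleles knocked out, and the WT cells carried the intact gene. Per the study's methods the mice were kept on a mixed CD1 and C57BL/6 background. Cells of both genotypes were taken from fetal brains at mid-gestation, on the same embryonic day for all libraries. By the study's account that day lies after the days on which the neural tube closes in mice. The cells were grown as neurospheres with 20 ng/ml epidermal growth factor and no other treatment, and used at passage 2. The tissue dissected, per the labels and the study's methods, was the ganglionic eminences of the ventral forebrain. The study's results section differs, in that it names both brain and spinal cord as the source of the cells. The libraries carry replicate numbers 1 to 3 in each genotype. They are called biological replicates, but no source used here says whether each culture came from its own embryo, so the p values measure the spread between these libraries only.

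ZIC proteins carry C2H2 zinc fingers closely related to those of the GLI factors of Hedgehog signalling. In the vertebrate embryo they are known for roles in the dorsal neural tube, its roof plate and the neural crest, and in the midline and septum of the forebrain. In mice, loss of *Zic2* or *Zic5* function disturbs closure of the neural tube, and *Zic1* and *Zic4* act together in the growth of the cerebellum. In humans, *ZIC2* variants cause holoprosencephaly, a failure of the forebrain to divide, and deletions that remove *ZIC1* and *ZIC4* occur in Dandy-Walker malformation of the cerebellum.

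The 4 genes form 2 neighbouring pairs, and in each pair the genes are transcribed away from each other. On GRCm38, *Zic1* lies on the minus strand of chromosome 9 at chr9:91358058-91365810, and *Zic4* lies on the plus strand at chr9:91362413-91389348. *Zic5* lies on the minus strand of chromosome 14 at chr14:122456795-122465677, and *Zic2* lies on the plus strand at chr14:122475435-122479852. The RefSeq transcription starts are 3204 bases apart for *Zic1* and *Zic4* and 9726 bases apart for *Zic5* and *Zic2*. The spans of *Zic1* and *Zic4* overlap over 3398 bases (chr9:91362413-91365810), where some of the 12 annotated *Zic4* transcripts start inside *Zic1*. Within that stretch only 60 exon bases are shared, which is 1.05% of the *Zic1* exon bases and 0.581% of the *Zic4* exon bases. The libraries were made strand-specific, but the sources used here do not say whether counting used the strand, so reads from those bases cannot be assigned to 1 of the genes. Sequence shared among the 4 genes was small, and other genes were not searched. Of the 50-base words of the annotated transcripts, 14 of 5674 in *Zic1* and 14 of 10361 in *Zic4* occur in another of the 4, none of those of *Zic2* or *Zic5* do, and no 100-base word is shared between any of them.

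RefSeq promoter sequences (GRCm38.p6) were matched for 3 of the 4 genes, *Zic1*, *Zic4* and *Zic5*. The 250 bases before the start of *Zic1* and of *Zic4* are shown because these neighbours had the largest fold changes of the 4 genes. In capitals are the matches to a CCAAT box (CCAAT) and to a GC box (GGGCGG), read 5′ to 3′ on the strand of the gene, at chr9:91365769-91366018 for *Zic1* and chr9:91368722-91368971 for *Zic4*.
Zic1: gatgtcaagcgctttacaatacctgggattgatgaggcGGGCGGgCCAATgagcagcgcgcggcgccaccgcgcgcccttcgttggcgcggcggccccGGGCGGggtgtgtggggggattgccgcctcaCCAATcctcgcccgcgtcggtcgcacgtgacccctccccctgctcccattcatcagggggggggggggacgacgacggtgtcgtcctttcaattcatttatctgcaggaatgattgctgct
Zic4: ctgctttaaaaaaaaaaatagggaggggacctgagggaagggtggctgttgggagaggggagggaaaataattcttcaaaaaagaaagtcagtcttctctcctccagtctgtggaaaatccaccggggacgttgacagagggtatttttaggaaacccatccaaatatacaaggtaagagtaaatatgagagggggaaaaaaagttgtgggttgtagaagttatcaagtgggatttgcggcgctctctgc
The *Zic1* stretch is rich in GC (66.0%) and in CpG, with 0.99 of the CpG number its base composition predicts, which is above 94.0% of all promoters of that length. It holds 2 CCAAT and 2 GGGCGG matches. The *Zic4* stretch has 44.4% GC and a CpG ratio of 0.38, and that of *Zic5* has 62.4% GC and a CpG ratio of 0.46, and neither holds a match. Also searched on both strands, with no match in any of the 3, were TATAAA, the box bound by the TATA-binding protein, CAGCAGG, the core of a ZIC motif, and GGGTGGTC, a GLI motif. Among 32851 promoters, CCAAT occurs in 33.8%, GGGCGG in 32.7%, TATAAA in 12.4%, CAGCAGG in 8.4% and GGGTGGTC in 0.7%. The motifs were chosen after the expression values were known, and a match is a description of the letters only.

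The depth of the libraries, as the sum over named loci, lay between 52995791 and 85170379 counts in KO and between 66018919 and 73445736 counts in WT. *Armc5* had 84, 119 and 43 counts in KO NPC 1, 2 and 3, against 1966, 2114 and 1797 in WT NPC 1, 2 and 3, so the labels and the gene match. KO NPC 3, the shallowest library, stood apart from the other 5 libraries in genes outside the Zic family. Its *Etv5* level, a target of FGF and EGF signalling, was 27.4 CPM (read counts scaled to the TMM-corrected library size), against 294 to 492 CPM in the others, and its *Aqp4* level, a water channel of astrocytes, was 1040 CPM, against 55.7 to 171 CPM. WT NPC 1 held little of some genes that define its labelled tissue. *Dlx2*, a transcription factor of the ganglionic eminence that was picked out after its values were seen, had 3.27, 8.59 and 70.2 CPM in KO NPC 1, 2 and 3, against 0.222, 16.4 and 31.0 CPM in WT NPC 1, 2 and 3. The Zic results are therefore also given without KO NPC 3 and without WT NPC 1.

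*Zic1* lay lower in every KO library than in any WT library. It had 1228, 1620 and 817 counts in KO NPC 1, 2 and 3, against 3453, 2060 and 2598 counts in WT NPC 1, 2 and 3. Scaled, that is 14.8, 22.3 and 13.9 CPM in KO, against 54.7, 28.8 and 37.9 CPM in WT. The groups did not overlap, although the highest KO library (KO NPC 2, 22.3 CPM) came near the lowest WT library (WT NPC 2, 28.8 CPM). The means were 17.0 ± 4.60 CPM in KO and 40.5 ± 13.2 CPM in WT (SD, n = 3 each). The log2 fold change was -1.25 (SE 0.31), a KO level 0.419 times that of WT. With edgeR's quasi-likelihood test the unadjusted p was 0.00623 and the p adjusted over all 19073 genes was 0.983, so the difference did not pass the threshold of 0.05.

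*Zic4*, the neighbour of *Zic1*, was the scarcest of the 4 and had the largest fold change. It had 75, 77 and 37 counts in KO NPC 1, 2 and 3, against 234, 177 and 191 counts in WT NPC 1, 2 and 3. The scaled levels were 0.904, 1.06 and 0.628 CPM in KO, against 3.71, 2.47 and 2.79 CPM in WT. Here the gap between the groups was wide, since the highest KO library was at 1.06 CPM and the lowest WT library at 2.47 CPM. Means were 0.863 ± 0.218 CPM in KO and 2.99 ± 0.642 CPM in WT (SD, n = 3 each), and the log2 fold change was -1.79 (SE 0.36), or 0.290 times WT. The quasi-likelihood test of edgeR gave an unadjusted p of 0.0021 and an adjusted p of 0.983.

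*Zic2* differed between the genotypes in 2 of the 3 KO libraries. KO NPC 1, 2 and 3 held 869, 1951 and 531 counts of it, against 2075, 1960 and 1689 counts in WT NPC 1, 2 and 3. On the CPM scale these were 10.5, 26.8 and 9.01 in KO, against 32.9, 27.4 and 24.7 in WT. KO NPC 2 lay inside the WT range, and KO NPC 1 and 3 lay far below it. The means were 15.4 ± 9.88 CPM in KO and 28.3 ± 4.19 CPM in WT (SD, n = 3 each). The log2 fold change was -0.88 (SE 0.44), 0.545 times WT, with an unadjusted p of 0.0933 and an adjusted p of 0.983 in edgeR's quasi-likelihood test.

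*Zic5*, the neighbour of *Zic2*, showed the same division of libraries. Its counts were 358, 758 and 165 in KO NPC 1, 2 and 3, against 687, 870 and 677 in WT NPC 1, 2 and 3. In CPM, KO libraries had 4.32, 10.4 and 2.80, against 10.9, 12.2 and 9.88 in WT libraries. KO NPC 2 was again within the WT range. Means of 5.84 ± 4.03 CPM in KO and 11.0 ± 1.14 CPM in WT (SD, n = 3 each) went with a log2 fold change of -0.91 (SE 0.49), or 0.533 times WT. In edgeR's quasi-likelihood test the unadjusted p was 0.112 and the adjusted p 0.983. In bulk RNA, fewer cells that express a gene and less of its RNA per cell cannot be told apart, and this holds for all 4 genes.

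**Figure D1:**
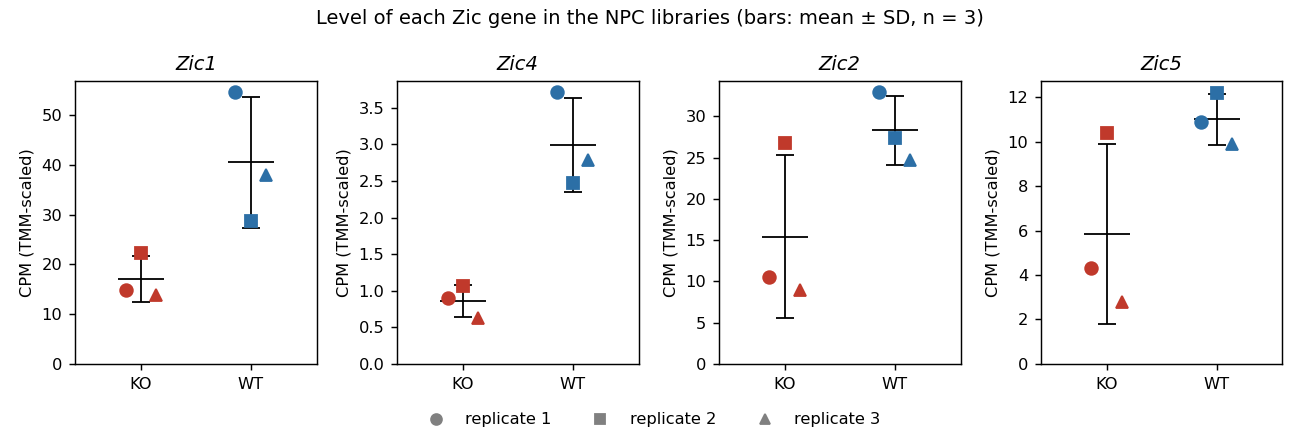
Level of *Zic1*, *Zic4*, *Zic2* and *Zic5* in CPM (TMM-scaled, linear axes from 0) in each of 3 KO and 3 WT NPC libraries; points are libraries, shaped by replicate number, and bars are mean ± SD. All KO points lie below all WT points for *Zic1* and *Zic4*, whereas KO NPC 2 reaches the WT range for *Zic2* (26.8 CPM) and *Zic5* (10.4 CPM).

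Set against all genes tested, these values read as follows. No Zic gene passed an adjusted p of 0.05 in the quasi-likelihood test, and neither did any other gene (percent called 0). The deleted gene *Armc5* itself, with a log2 fold change of -4.68 (SE 0.36), had an adjusted p of 0.0864 in this test. A missing call is therefore not evidence that a gene was unchanged. At an unadjusted p under 0.05, *Zic1* and *Zic4* were 2 of the 127 genes lower in KO, which is 0.666% of the genes tested, while 181 genes were higher. By that p, *Zic4* ranked 23 and *Zic1* ranked 40 among 19073 genes, and *Zic2* and *Zic5* ranked 839 and 1144. Every KO library lay below every WT library for 626 genes, or 3.28% of those tested, and *Zic1* and *Zic4* were among them. A log2 fold change under 0, which all 4 Zic genes had, was found for 51.6% of genes.

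The tools differed in their call of *Zic4* and of no other Zic gene. The likelihood ratio test of edgeR called 9 genes lower in KO (0.0472% of those tested) and no Zic gene, with an adjusted p of 0.16 for *Zic4* and 0.429 for *Zic1*. DESeq2 called 14 genes lower (0.0734%), and *Zic4* was 1 of them with a log2 fold change of -1.77 and an adjusted p of 3.61e-04. With limma voom and sample quality weights the adjusted p of *Zic4* was 0.392. Over all settings in which KO NPC 3 was kept, the *Zic4* call was made by DESeq2 alone. *Zic1* was not called by any tool, and its adjusted p in DESeq2 was 0.19.

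**Figure D2:**
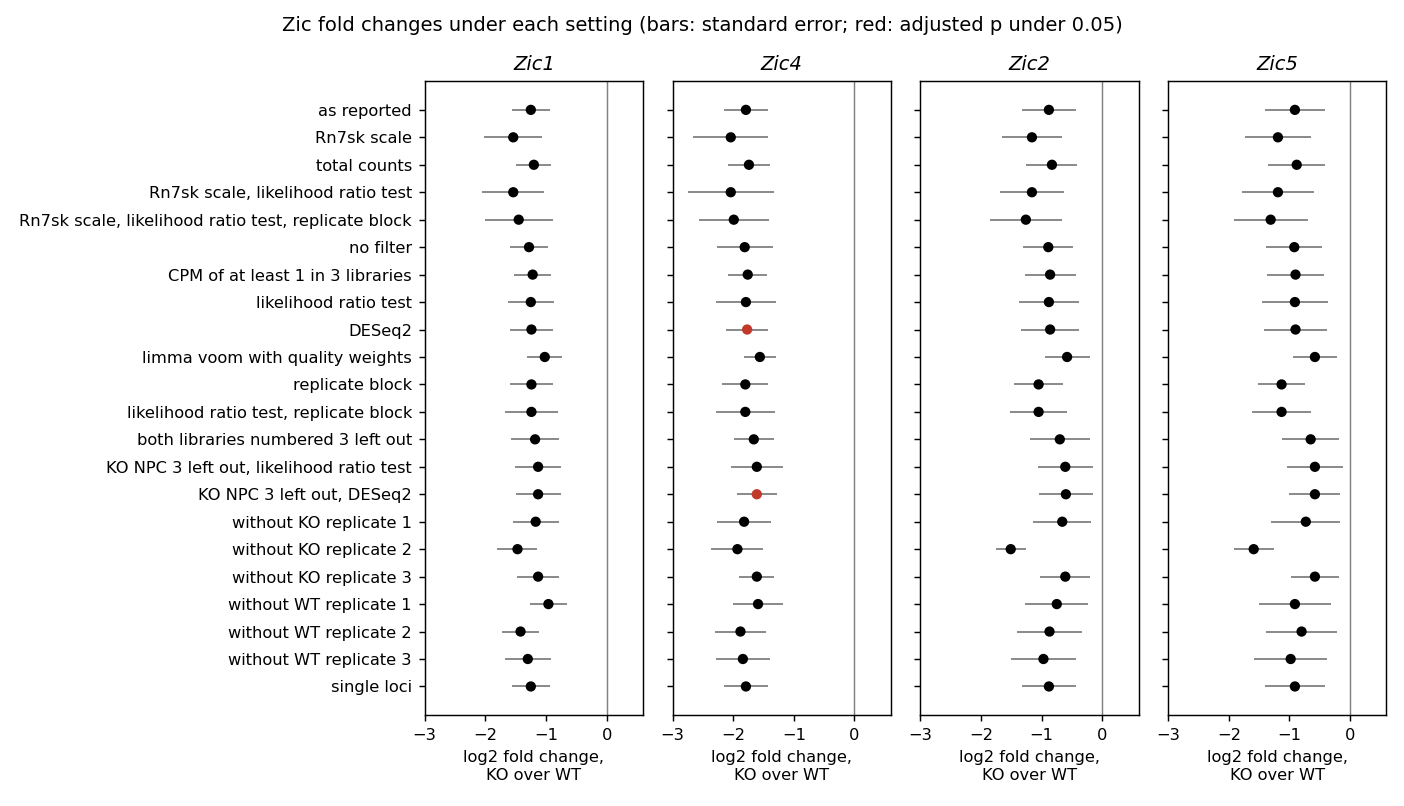
Log2 fold change, KO over WT, of each Zic gene under the reported settings and 21 alternatives (rows); points are estimates, bars are standard errors, and red points have an adjusted p under 0.05. All points lie below 0, and the red ones are *Zic4* with DESeq2, with all libraries (-1.77) and without KO NPC 3 (-1.61).

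The direction of the Zic differences did not rest on KO NPC 3, but their size did in part for *Zic2* and *Zic5*. Without KO NPC 3 the log2 fold changes were -1.13 for *Zic1*, -1.61 for *Zic4*, -0.61 for *Zic2* and -0.58 for *Zic5*. The last is a change by over 1.5 times from -0.91. Without WT NPC 1 they were -0.96 for *Zic1*, -1.59 for *Zic4*, -0.75 for *Zic2* and -0.91 for *Zic5*. KO NPC 2 acted in the opposite sense. Without it, *Zic2* had a log2 fold change of -1.51 (SE 0.25) and an unadjusted p of 0.00134 with edgeR, and *Zic5* had -1.59 (SE 0.33) and 0.00381. Both remained short of an adjusted p of 0.05. KO NPC 2 was the only KO library within the WT range of *Zic2* and *Zic5*, so leaving it out favours a small p. In the same test the unadjusted p of *Zic2* and *Zic5* was 0.197 and 0.194 without KO NPC 3. It was 0.208 and 0.183 without WT NPC 1.

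The replicate numbers mark pairs of KO and WT libraries that deviate together across genes, and within each number the KO library held less of each Zic transcript. The ratio of KO to WT CPM in numbers 1, 2 and 3 was 0.271, 0.773 and 0.365 for *Zic1* and 0.244, 0.428 and 0.225 for *Zic4*. For *Zic2* it was 0.319, 0.979 and 0.365, and for *Zic5* it was 0.397, 0.857 and 0.283. All 12 ratios were below 1, and for each gene the ratio of number 2 was the closest to 1. The 12 are not independent, since all come from the same 6 libraries and neighbouring genes moved together. The share of all tested genes that lay lower in KO within every replicate number was not counted. With the replicate block, the quasi-likelihood log2 fold changes were -1.24 for *Zic1*, -1.80 for *Zic4*, -1.05 for *Zic2* and -1.13 for *Zic5*, and edgeR's adjusted p was 0.968 for each. In that quasi-likelihood test the unadjusted p was 0.0207 for *Zic1*, 0.00664 for *Zic4*, 0.0501 for *Zic2* and 0.0399 for *Zic5*. It was larger than without the block for *Zic1* and *Zic4* and smaller for *Zic2* and *Zic5*. Of the 19073 genes tested, 166 were lower in KO at an unadjusted p under 0.05 in it.

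**Figure D3:**
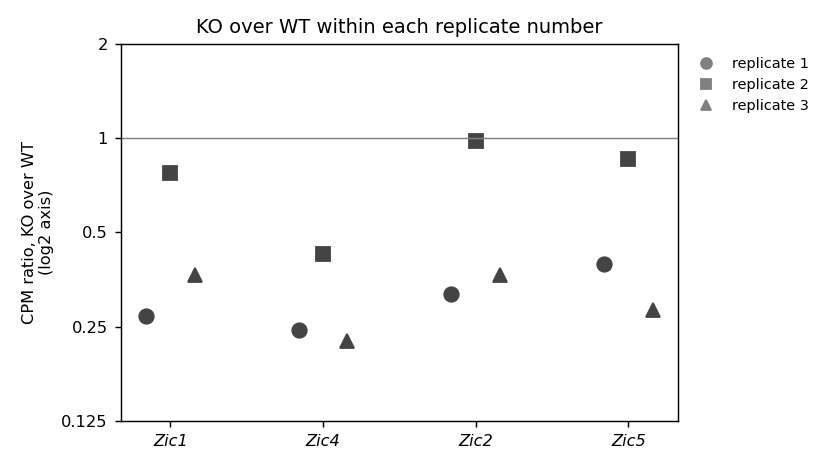
Ratio of KO to WT CPM of each Zic gene within replicate numbers 1, 2 and 3 (points, log2 axis, line at a ratio of 1). The ratios run between 0.225 (*Zic4*, number 3) and 0.979 (*Zic2*, number 2), and number 2 is closest to 1 for each gene.

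Per kilobase of exon, which allows levels to be compared between genes, the order was *Zic2*, *Zic1*, *Zic5* and *Zic4* in both genotypes. *Zic2* had 5.36 ± 3.43 CPM per kb in KO and 9.83 ± 1.45 CPM per kb in WT (SD, n = 3 each). *Zic1* had 2.98 ± 0.808 CPM per kb in KO and 7.11 ± 2.31 CPM per kb in WT. The median of all tested genes was 2.94 CPM per kb in KO and 2.82 CPM per kb in WT. *Zic2* lay above it in both genotypes. *Zic1* lay above it in WT and about at it in KO, where its mean was above 50.3% of tested genes. *Zic2* was above *Zic1* in each of the 6 libraries, but the ranges of the 2 genes overlapped in KO and in WT. *Zic5* had 1.20 ± 0.824 CPM per kb in KO and 2.25 ± 0.233 CPM per kb in WT. *Zic4* had 0.0835 ± 0.0211 CPM per kb in KO and 0.289 ± 0.0621 CPM per kb in WT, which placed it above 5.38% of tested genes in KO and above 18.9% in WT. The 10335 exon bases by which *Zic4* is divided are summed over its 12 transcripts.

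Across the 6 libraries, the correlation was higher between neighbours than across the pairs, but this did not hold among the KO libraries alone. Pearson's r of log2 CPM was 0.96 for *Zic1* and *Zic4* and 0.98 for *Zic2* and *Zic5*, against 0.81 to 0.88 for the 4 combinations across pairs. With each group's mean removed, r was 0.88 and 0.95 within the pairs and 0.55 to 0.74 across them. Within the 3 KO libraries r was 0.81 for *Zic1* and *Zic4*, against 1.00 for *Zic1* and *Zic2* and 0.98 for *Zic1* and *Zic5*. These are descriptions over few libraries, in which the genes share depth and scaling. The proportion between neighbours was also followed. The ratio of *Zic1* to *Zic4* CPM was 16.4, 21.0 and 22.1 in KO NPC 1, 2 and 3, against 14.8, 11.6 and 13.6 in WT NPC 1, 2 and 3. It was higher in every KO library (19.8 ± 3.04) than in any WT library (13.3 ± 1.58, SD, n = 3 each), and no test was made of it. The ratio of *Zic2* to *Zic5* overlapped between the genotypes, at 2.74 ± 0.421 in KO and 2.59 ± 0.392 in WT.

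*Rn7sk*, a small nuclear RNA made by RNA polymerase III, was the internal scale of the study, and on it the distances between genotypes grew. Per 1000 *Rn7sk* counts, *Zic1* had 1.27, 1.42 and 0.995 in KO NPC 1, 2 and 3, against 4.24, 1.78 and 4.70 in WT NPC 1, 2 and 3. *Zic4* had 0.0774, 0.0677 and 0.0451 in KO, against 0.287, 0.153 and 0.346 in WT. *Zic5* had 0.369, 0.666 and 0.201 in KO, against 0.844, 0.754 and 1.22 in WT. On this scale *Zic5* joined *Zic1* and *Zic4* in having no overlap between the groups. The share of all genes without overlap on this scale was not counted. *Rn7sk* itself was lowest in WT NPC 3, at 8070 CPM, against 11700 to 16100 CPM in the other libraries. This raises every value of WT NPC 3 on this scale, and that library went from the lowest WT value of *Zic5* in CPM to the highest. *Zic2* still overlapped, with 0.897, 1.71 and 0.647 in KO, against 2.55, 1.70 and 3.06 in WT. This scale moved the median log2 fold change of all tested genes to -0.26, against -0.01 with TMM, so part of the added distance is common to all genes.

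Genes of the labelled tissue and of regions in which Zic genes are known to act were also followed. In the quasi-likelihood test none of them was called, and neither was any of the 19073 genes tested, so the missing calls are not particular to these lists. None of the 15 ventral telencephalon genes was called, and their median log2 fold change was 0.32, or -0.22 without KO NPC 3. Among them *Meis2* and *Six3* were detected in all 6 libraries, whereas *Isl1* had no count in KO NPC 1 and in WT NPC 1, and *Dlx5* had none in WT NPC 1 and 0.0723 CPM in KO NPC 1. *Meis2* had 193, 243 and 338 CPM in KO NPC 1, 2 and 3, against 114, 274 and 209 CPM in WT NPC 1, 2 and 3. Of the dorsal neural tube and roof plate list, 7 of 15 genes were tested and none was called, with a median of 0.24, or -0.37 without KO NPC 3. *Pax3*, which marks the dorsal neural tube, had 15.2, 7.21 and 18.1 CPM in KO, against 26.7, 3.56 and 9.37 CPM in WT. Of the midbrain, hindbrain and spinal cord list, 9 of 12 were tested and none was called, with a median of -0.31. *En2*, which marks the midbrain and hindbrain boundary, had 25.3, 6.29 and 12.1 CPM in KO, against 34.6, 5.49 and 14.2 CPM in WT. The libraries numbered 1 were the highest in *En2* in both genotypes, and the libraries numbered 2 were the lowest. The part of regional composition in the Zic values was not tested.

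**Figure D4:**
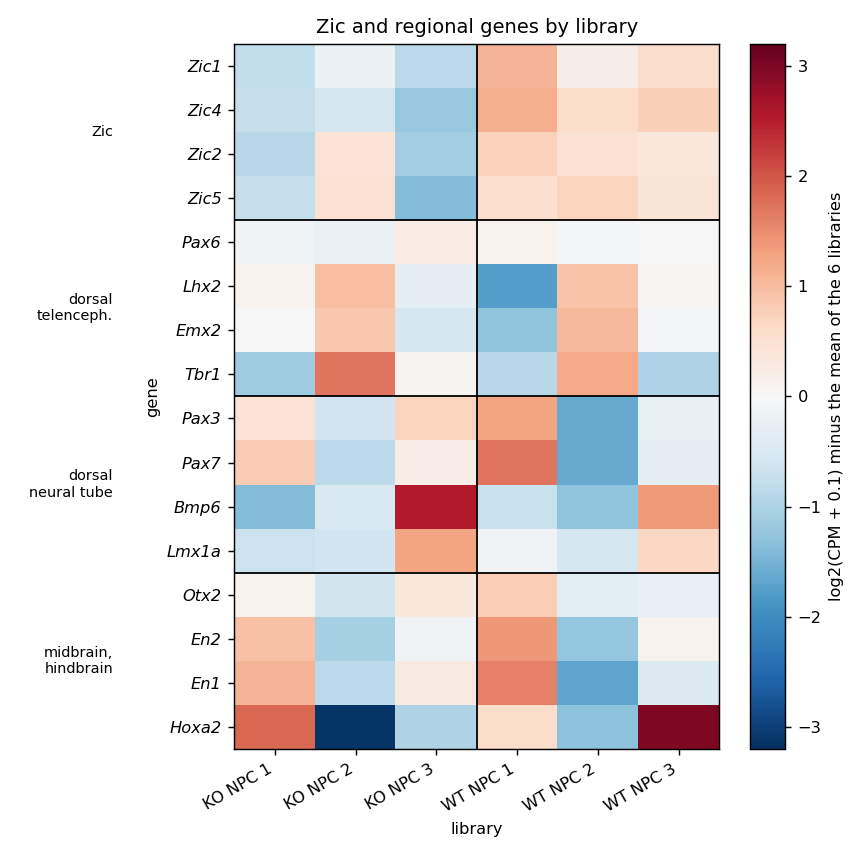
Log2(CPM + 0.1) of each gene (rows) in each library (columns, KO left of WT), minus the gene's mean over the 6 libraries; blue is below and red is above that mean. The 4 Zic rows are blue in KO NPC 1 and 3 and red in the 3 WT libraries, whereas *Pax3*, *En2* and *Lhx2* vary with replicate number or single libraries, such as WT NPC 1 at -1.75 for *Lhx2*.

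The relatives and binding partners of ZIC proteins were also not called in the quasi-likelihood test, like every other gene. All 8 of the list, made of GLI and GLIS factors and the I-mfa domain proteins that bind them, were tested and none was called, with a median log2 fold change of 0.21, against -0.01 for all genes, and of -0.03 without KO NPC 3. *Gli3*, the main GLI repressor, had 77.5 ± 32.1 CPM in KO and 84.1 CPM on average in WT, a log2 fold change of -0.12. Of the 8 neural crest genes 6 were tested and none was called (median 0.48, or 0.32 without KO NPC 3). The dorsal telencephalon list had 6 of 8 tested and none called (median 0.30, or 0.06 without KO NPC 3). *Lhx2* of that list, a forebrain transcription factor, had 32.2, 57.8 and 24.5 CPM in KO, against 8.76, 56.2 and 30.6 CPM in WT, so WT NPC 1 was low in it. Of the septum and rostral midline list, 7 of 10 were tested and none was called, with a median of -0.30. Its most abundant members, *Etv5*, *Spry2*, *Spry1* and *Etv4*, are response genes of FGF signalling. They were low in KO NPC 3, and the median was 0.25 without that library.

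Cell types other than progenitors could hold Zic transcripts, the meninges and cerebellar granule cell precursors in particular. The 10 neural progenitor markers were all tested and, like every other gene, none was called in the quasi-likelihood test. Their median log2 fold change was -0.06 (0.02 without KO NPC 3), with summed levels of 3180 to 4800 CPM in KO and 4290 to 4610 CPM in WT. The lowest sum was that of KO NPC 3, in which the markers did not move alike. Of the 4 most abundant, *Slc1a3*, *Vim* and *Fabp7* were lowest in KO NPC 3 and the locus that holds *Sox2* was highest there. *Vim* had 328 CPM in KO NPC 3, against 719 to 966 CPM in the other libraries. The *Sox2* locus had 812 CPM in KO NPC 3, against 536 to 626 CPM. It is a merged locus that also holds the noncoding *Sox2ot*, so its level cannot be given to *Sox2* alone. Of 10 markers of meninges and fibroblasts 5 were tested and none was called, with a median of -0.39. Their sum ran from 125 to 447 CPM in KO and from 104 to 339 CPM in WT, most of it *Pdgfra*, which progenitors of oligodendrocytes also express. *Foxc1*, a defining gene of the meninges, had 4.96, 1.77 and 0.882 CPM in KO, against 4.71, 0.908 and 4.35 CPM in WT. Of 6 markers of granule cell precursors 4 were tested, with a median of 0.12, or -0.27 without KO NPC 3, and sums of 45.2 to 87.9 CPM in KO and 52.7 to 58.9 CPM in WT, most of it *Pax6*, which is also on the progenitor list. The choroid plexus list had 5 of 8 tested, a median of 0.06, or -0.36 without KO NPC 3, and no call in the quasi-likelihood test. *Aqp1* of that list, a water channel, had 1.31, 1.53 and 3.10 CPM in KO, against 0.396, 0.433 and 0.613 CPM in WT, and was called by DESeq2 but not by edgeR. Markers of neurons (median 0.25), astrocytes (0.91), the oligodendrocyte lineage (0.91) and endothelial and mural cells (0.24) had no call, and without KO NPC 3 their medians were -0.61, -0.12, 0.05 and -0.52. None of the 7 microglia markers and none of the 6 red blood cell markers passed the filter on low counts. The part of other cell types in the Zic values was not tested.

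The genes whose levels followed each Zic gene most closely were taken among 14347 genes with a mean of at least 1 CPM, by Pearson's r of log2 CPM over the 6 libraries. For *Zic1* they were *Aup1* (0.9776), *Gm16092* (0.9683) and *Dnajc3* (0.9657), a list that leaves out 1 gene set aside from the candidates after the values were seen, which would have stood among these 3. For *Zic4* they were the merged locus of *Spag7* and *Camta2* (0.9844), *Gm10320* (0.9817) and *Ppp6c* (0.9810), with *Armc5* itself next at 0.9784. Group means were not removed for these r. *Armc5* is the deleted gene, so its r with *Zic4* largely restates the split of the libraries by genotype. For *Zic2* they included *Ubl3* (0.9964) and *Prex2* (0.9886), and *Zic5* came sixth. *Zic5* was followed most closely by *Txnrd2* (0.9983) and *Npepps* (0.9916). High values are common among so many genes over 6 libraries, and by rank correlation 31 genes, *Aup1* among them, shared the highest value for *Zic1*.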

How the data were processed

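RNA was extracted from NPC neurospheres of 3 KO and 3 WT cultures, depleted of rRNA, made into strand-specific paired-end libraries and sequenced. The submitters' processing notes name GRCm38 as the build and, without versions, edgeR, Picard, STAR, StringTie and Trimmomatic as tools. The sources used here do not name the tool that counted reads. The deposited table holds raw whole-number counts for each locus, and the loci are StringTie gene models joined to those of an annotation. The authors also deposited log2 values (log2 CPM, and log2 counts relative to *Rn7sk*, with group means), which were not used, and a length in bases for each locus, which was used for levels per kilobase.

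The 53103 named loci were added up to 53060 genes or merged loci, and unnamed loci, with 1.31% to 4.89% of a library's counts, were set aside. The filter was filterByExpr of edgeR 4.0.16 (minimum count 10, minimum total 15), the scaling was TMM, and KO was compared with WT by the quasi-likelihood test in R 4.3.3. Benjamini-Hochberg adjustment ran over the 19073 genes tested, with a threshold of 0.05, and SE is the log2 fold change over the square root of F. The study's own analysis, a paired likelihood ratio test of transcripts normalised by a ratio of *Rn7sk* log2 CPM values, was not repeated. The alternatives include the likelihood ratio test per gene with library sizes proportional to the *Rn7sk* count, with and without the replicate block, DESeq2 1.42.0, limma 3.58.1 (voom), other filters, leaving out each library and single loci. The fits were tested on simulated data. Likeness was Pearson's r of log2 CPM with a prior count of 2. Named beside the Zic genes were *Armc5*, up to 4 most abundant members of a list and, for each Zic gene, the 3 genes most like it. Lists were described by counts and medians.

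Libraries with the same replicate number deviated together, with a correlation of deviations from the group means of 0.413, 0.169 and 0.195 for numbers 1, 2 and 3, against at most 0.0579 for other combinations, so the numbers were taken to pair the libraries. The members, lists and tests were chosen with earlier results of these data known. Some genes that the naming rule would give are not reported here, and a further gene of the family was left out of the candidates for likeness, a choice made after the values were seen. Gene models are GENCODE M21 and promoters RefSeq GRCm38.p6, both of the build of the files.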

Additional observations from a re-analysis of the deposited data

How the results depend on the processing

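The log2 fold changes of *Zic1*, *Zic2*, *Zic4* and *Zic5* were below 0 in all 21 alternatives, and the call changed only for *Zic4*, which passed the threshold with DESeq2 (-1.77, adjusted p 3.61e-04) and with DESeq2 without KO NPC 3 (-1.61, adjusted p 3.64e-04), so that 1 Zic gene was past the threshold in each of these settings. Across the other edgeR and limma settings the adjusted p of *Zic4* was as low as 0.0576, with the likelihood ratio test without KO NPC 3, and as high as 1. With each library left out in turn, log2 fold changes ran from -1.47 to -0.96 for *Zic1*, -1.51 to -0.61 for *Zic2*, -1.93 to -1.59 for *Zic4* and -1.59 to -0.58 for *Zic5*, and no Zic gene was called. The lower end for *Zic2* and *Zic5* is without KO NPC 2 and the upper end without KO NPC 3. The replicate block changed no call of a Zic gene, with -1.80 for *Zic4* in the quasi-likelihood test.

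The number of all genes past the threshold was 0 with the quasi-likelihood test (308 at an unadjusted p under 0.05), 4 on the *Rn7sk* scale, 5 without a filter and 8 with limma voom. It was 17 with the likelihood ratio test, 8 with that test on the *Rn7sk* scale, 38 with that test and the replicate block, and 22 with all of these together. DESeq2 gave 35, and without KO NPC 3 the likelihood ratio test gave 68 and DESeq2 90. The cause was not tested. Among list medians, levels and likeness, 307 values stayed within the spread between libraries or the margin set for counts and 20 did not. The likeness of each Zic gene is among the 20. By rank correlation, 1, 0, 0 and 1 of the 3 genes most like *Zic1*, *Zic2*, *Zic4* and *Zic5* had the highest value. A median within the spread could still change sign, as that of neurons did, from 0.25 to -0.61 without KO NPC 3. *Zic4*, with 37 to 234 counts a library, is the most limited by depth, and 3 libraries of a genotype limit all 4 genes.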
